A study of Mus musculus with 6 samples.

Results

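Aminoacyl-tRNA synthetases are the enzymes that attach each amino acid to its transfer RNA, and 36 of their genes are described here in mouse MB49 tumours, out of 57186 genes in the deposited count table. The genes were chosen by name: 20 encode enzymes of the cytosol, and 16, whose symbols end in 2, encode enzymes of mitochondria. All 36 were found in the table and all 36 had enough reads to be tested. The tumours grew from MB49, a bladder carcinoma line from a male mouse, injected subcutaneously in C57Bl/6J hosts, taken at 500 mm3 and sorted by flow cytometry for cells negative for CD45, the common leukocyte antigen. The Y-KO group (3 libraries) came from cells edited with CRISPR against the Y chromosome, and the Y-Scr group (3 libraries) from the comparison cells of the same line, labelled CRISPR Y-Scr, a name the labels do not spell out. The sources used here do not state whether each group of cells was 1 clone, nor the age or sex of the host mice, and no other agent is named for either group. Neither do they say that the replicates came from separate animals, so p-values speak only of the spread among these libraries, part or all of which may be technical.

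Library totals ran from 42040955 to 52951031 counts. In all 5 Y-linked genes that could be tested the level was lower in Y-KO, and 1 of them, Eif2s3y, which belongs to the translation machinery, is described with the initiation factors. Within each group some libraries were closer than others. Across 9858 genes the root mean square log2 difference was 0.184 between Y-KO replicates 1 and 2, but 0.476 and 0.480 between these and Y-KO replicate 3. Within Y-Scr it was 0.133 between replicates 2 and 3 and at most 0.201 for the other pairs, and between the groups it ran from 0.567 to 0.619. Y-KO replicate 3 thus stood apart from its group, and results that rest on it are given with and without it. The gate did not remove all leukocyte RNA: Ptprc, which encodes CD45, stood at 293, 298 and 134 CPM (counts scaled to a common library size adjusted by TMM) in Y-KO replicates 1, 2 and 3, against 521, 577 and 601 CPM in the Y-Scr replicates. The counts are of bulk RNA, in which fewer cells of a type and less RNA per cell cannot be told apart.

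A synthetase recognises its amino acid and activates it with ATP before joining it to the matching transfer RNA, so that each codon is read as the right residue. Most amino acids have separate enzymes for the cytosol and for the mitochondrial matrix, both encoded in the nucleus, and the mitochondrial enzymes serve only the few proteins made on mitochondrial ribosomes. Part of the cytosolic enzymes are held in a multi-synthetase complex by scaffold proteins, while the others act free of it. When cells lack amino acids or their endoplasmic reticulum is under stress, kinases phosphorylate the initiation factor eIF2, and the transcription factor Atf4, whose translation then increases, is known to activate genes of amino acid uptake and synthesis and of cytosolic synthetases.

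Transcripts of the cytosolic synthetases were higher in Y-KO tumours, and those of the mitochondrial synthetases were not called in either direction. Of the 20 cytosolic genes 17 rose, none fell and 3 did not pass (quasi-likelihood test of edgeR, with p-values adjusted by Benjamini-Hochberg over all genes tested and called under 0.05), while 7.82% of the 17837 genes tested were called higher and 16.1% were called in either direction. Their median log2 fold change, Y-KO over Y-Scr, was 0.59, with a range of 0.02 to 0.99, beside a median of -0.03 over all genes tested. Of the 16 mitochondrial genes none was called, with a median log2 fold change of 0.13 and a range of -0.38 to 0.49; 4 of them had an unadjusted p under 0.05, 3 higher and 1 lower, as had 30.7% of all genes. In 18 of the 20 cytosolic genes all Y-KO libraries lay above all Y-Scr libraries, as did 17.5% of all genes tested, and the other two overlapped. Among the mitochondrial genes 5 were separated with Y-KO above, 1 with Y-KO below (20.3% of all genes), and 10 overlapped. Summed over the 20 cytosolic genes the level was 4179, 4246 and 3597 CPM in the Y-KO libraries, against 2784, 2641 and 2634 CPM in the Y-Scr libraries. Summed over the 16 mitochondrial genes it was 847, 810 and 815 CPM in Y-KO, against 823, 785 and 805 CPM in Y-Scr. The cytosolic sums of the groups did not overlap and the mitochondrial sums did. Most of each mitochondrial sum came from Lars2, with 454, 413 and 434 CPM in Y-KO, against 448, 418 and 444 CPM in Y-Scr. The overlap of these sums therefore says little of the other mitochondrial genes.

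**Figure D1:**
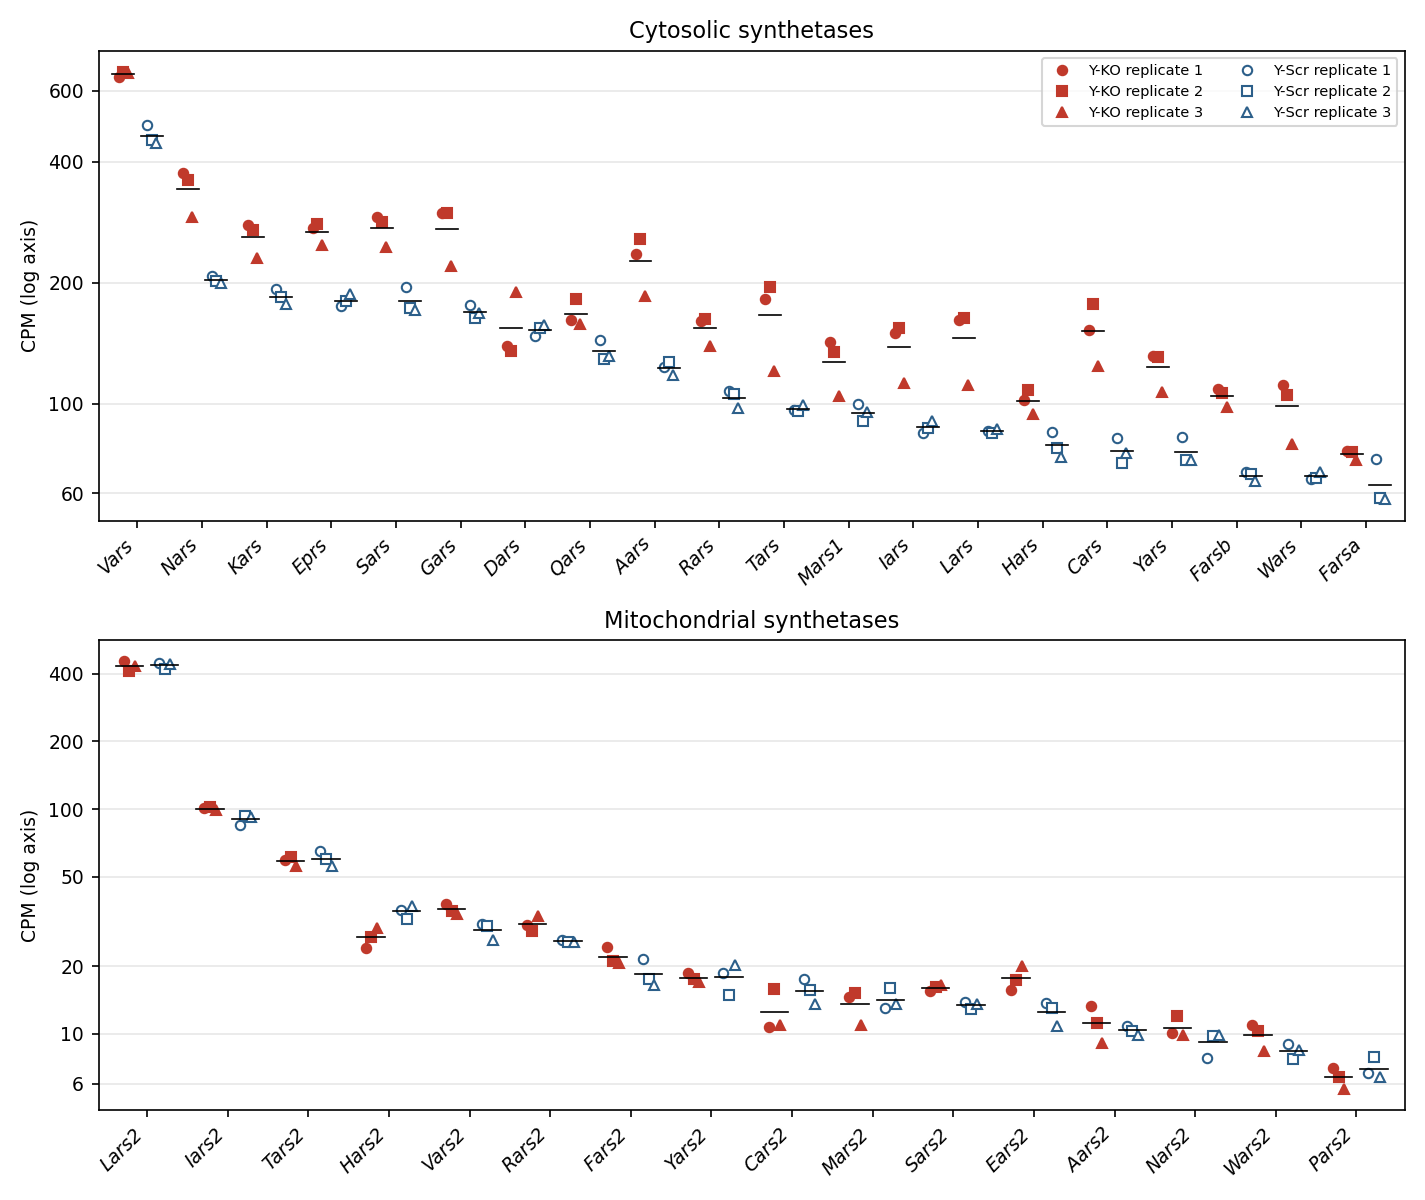
Level of each synthetase gene in each library in CPM on a log axis, cytosolic genes above and mitochondrial genes below, ordered by their mean in Y-Scr. Filled red symbols are Y-KO libraries, open blue symbols Y-Scr libraries, the shapes mark replicates 1 to 3 and the short lines are group means. The Y-KO symbols lie above all Y-Scr symbols in 18 of the 20 cytosolic genes and in 5 of the 16 mitochondrial genes.

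**Figure D2:**
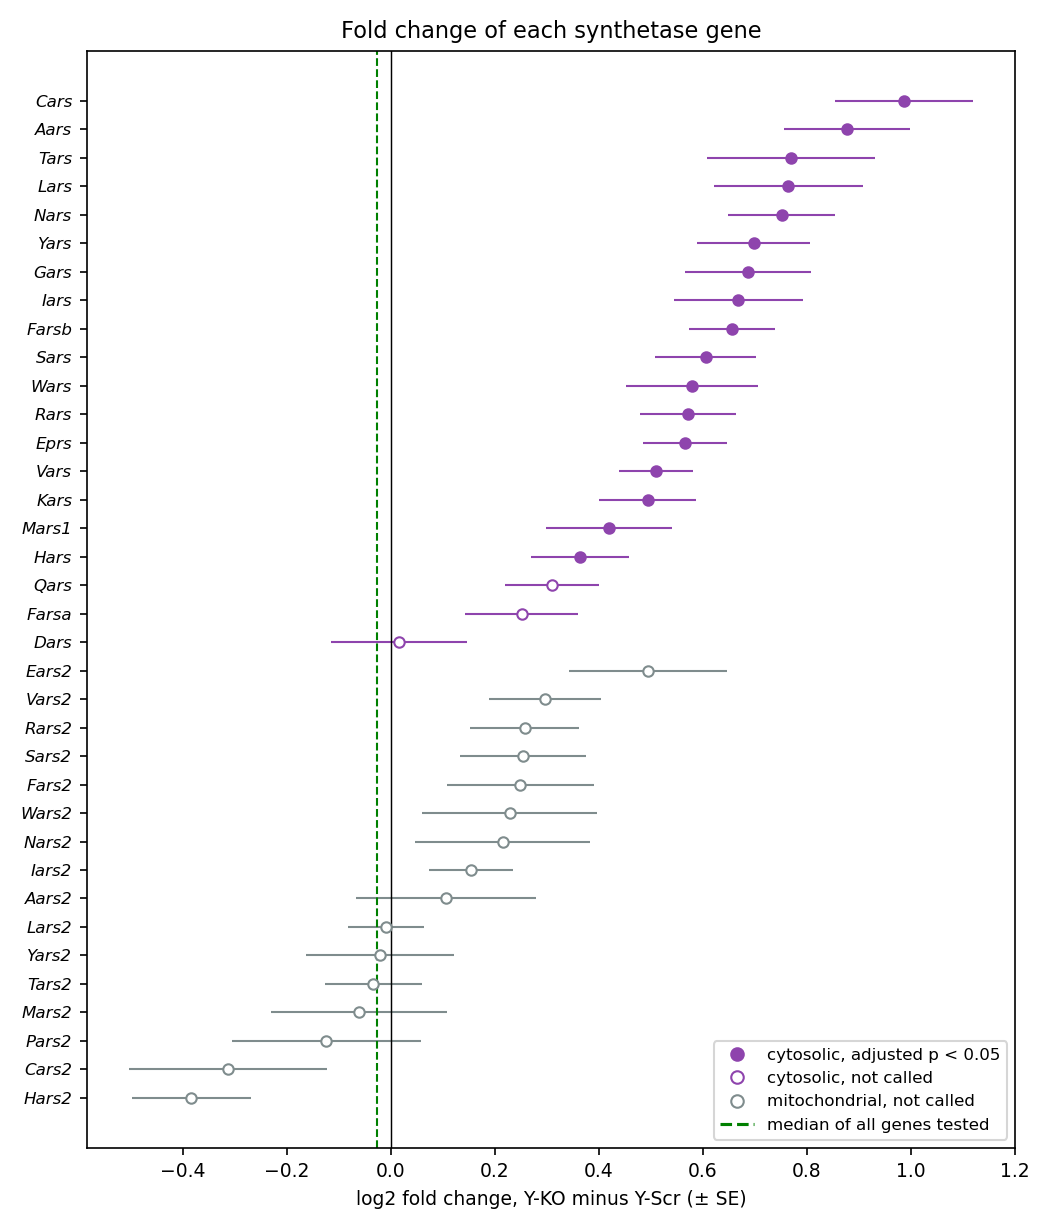
The log2 fold change of each synthetase gene, Y-KO minus Y-Scr, with its standard error. Filled circles have an edgeR adjusted p under 0.05; the dashed line is the median of all genes tested, -0.03. The 17 filled circles are all cytosolic, and the 3 cytosolic genes with open circles are Qars, Farsa and Dars.

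Folds overlapped between enzymes that act outside the multi-synthetase complex and those in it, a grouping written after the fold changes were seen. The log2 fold changes ran from 0.25 to 0.99 outside the complex and from 0.02 to 0.76 inside it. Of the 12 genes outside it 11 rose, beside 7.82% of all genes called higher, with a median log2 fold change of 0.67. The largest change of all 36 was that of Cars (chromosome 7, 143110967 to 143153827, GRCm39), the cysteinyl-tRNA synthetase gene. It stood at 152, 177 and 124 CPM in the Y-KO libraries, against 82.2, 71.4 and 75.4 CPM in the Y-Scr libraries. The lowest Y-KO library, replicate 3, was still well above the highest Y-Scr library. The fold was 1.98, a log2 fold change of 0.99 (SE 0.13, adjusted p = 0.00214 by edgeR). Aars (chromosome 8, 111759776 to 111784296), which charges alanine, followed with 236, 256 and 185 CPM in Y-KO, against 124, 127 and 118 CPM in Y-Scr, a log2 fold change of 0.88 (SE 0.12, adjusted p = 0.00242 by edgeR). Again the groups were apart, and again Y-KO replicate 3 was the lowest of its group.

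Tars (chromosome 15, 11382387 to 11399751), the threonine enzyme, had the largest SE of the cytosolic genes. Its values were 182, 195 and 121 CPM in Y-KO, against 96.7, 95.8 and 99.4 CPM in Y-Scr, so that replicate 3 lay nearer to Y-Scr than to the other Y-KO libraries. The log2 fold change was 0.77 (SE 0.16, adjusted p = 0.0154 by edgeR); the call was lost when any library other than Y-KO replicate 3 was left out, with adjusted p between 0.0512 and 0.0698. Nars, which charges asparagine, had 374, 361 and 292 CPM in Y-KO, against 208, 202 and 199 CPM in Y-Scr, a log2 fold change of 0.75 (SE 0.10, adjusted p = 0.00234 by edgeR). Yars, the tyrosine enzyme, rose 1.62-fold (log2 fold change 0.70, SE 0.11), and Sars, the serine enzyme, 1.52-fold (0.61, SE 0.10). For these 3 genes the groups were apart and the call held without any single library.

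Vars (chromosome 17, 35219963 to 35235298), which charges valine, had the highest CPM of all synthetase genes and was even within Y-KO. It stood at 647, 667 and 663 CPM in the Y-KO libraries, against 493, 452 and 444 CPM in the Y-Scr libraries. No Y-KO library stood apart here, and replicate 3 lay between the other two. The fold was 1.42 (log2 fold change 0.51, SE 0.07, adjusted p = 0.00249 by edgeR), smaller than that of Cars but with the smallest SE of all cytosolic genes.

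The phenylalanine enzyme is built from 2 kinds of subunit, and their genes gave different results. Farsb, the beta subunit gene, averaged 104.5 ± 5.38 CPM in Y-KO tumours and 66.3 ± 1.87 CPM in Y-Scr tumours (SD, n = 3 each), a log2 fold change of 0.66 (SE 0.08, adjusted p = 0.00161 by edgeR). Farsa, the alpha subunit gene, had 76.5, 76.0 and 72.6 CPM in Y-KO, against 72.9, 58.3 and 57.9 CPM in Y-Scr, and was not called (log2 fold change 0.25, SE 0.11, adjusted p = 0.158 by edgeR). One library decided the overlap: Y-Scr replicate 1 lay within the Y-KO range, and without it Farsa passed, with a log2 fold change of 0.39 and an adjusted p of 0.0401, as it did without Y-KO replicate 3 (0.27, adjusted p = 0.0462). Whether the changes of the subunit genes differ from each other was not tested.

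Hars (chromosome 18, 36899581 to 36916258), the histidine enzyme, changed least among the called genes, with 102, 108 and 94.4 CPM in Y-KO, against 85.3, 77.8 and 74.0 CPM in Y-Scr. The log2 fold change was 0.36 (SE 0.09, adjusted p = 0.0326 by edgeR), and the call was lost in 4 of the 6 fits that left out a library. Wars, the tryptophan enzyme, known to be induced by interferon-gamma, had 111, 105 and 79.5 CPM in Y-KO, against 65.0, 65.3 and 67.9 CPM in Y-Scr. Its groups were apart, with Y-KO replicate 3 again closest to Y-Scr (log2 fold change 0.58, SE 0.13, adjusted p = 0.0180 by edgeR). Without any one library other than Y-KO replicate 3 the Wars call was lost, with adjusted p from 0.0614 to 0.0799.

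Among the 8 enzymes of the multi-synthetase complex 6 rose, beside 7.82% of all genes called higher, with a median log2 fold change of 0.53. Lars, which charges leucine and has also been described as a leucine sensor of the growth regulator mTORC1, had 161, 164 and 111 CPM in Y-KO, against 85.8, 84.6 and 86.5 CPM in Y-Scr, the largest change of the complex at a log2 fold change of 0.76 (SE 0.14, adjusted p = 0.00934 by edgeR). The Y-Scr libraries were nearly level, and the spread lay in Y-KO, where replicate 3 was low. Iars, the isoleucine enzyme, rose 1.59-fold (log2 fold change 0.67, SE 0.12), and Rars, the arginine enzyme, 1.49-fold (0.57, SE 0.09). Eprs, whose single chain charges both glutamate and proline, had 274, 280 and 248 CPM in Y-KO, against 175, 180 and 187 CPM in Y-Scr, and rose 1.48-fold (0.57, SE 0.08, adjusted p = 0.00286 by edgeR). All 4 calls held without any single library.

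Mars1 (chromosome 10, 127132090 to 127147655), the methionine enzyme, was the called gene nearest to the threshold, with 143, 134 and 105 CPM in Y-KO, against 99.8, 90.5 and 95.2 CPM in Y-Scr (log2 fold change 0.42, SE 0.12, adjusted p = 0.0483 by edgeR). Its groups were apart, but of the 6 fits that left out a library only the one without Y-KO replicate 3 kept the call. Just outside the threshold lay Qars, the glutamine enzyme, with 162, 182 and 158 CPM in Y-KO, against 144, 129 and 132 CPM in Y-Scr (log2 fold change 0.31, SE 0.09, adjusted p = 0.0509 by edgeR). Its groups did not overlap either, and DESeq2 (adjusted p = 0.0257), which called 21.5% of all genes in either direction, and limma-voom (adjusted p = 0.0363), which called 18.4%, both called it, as did edgeR without Y-KO replicate 3 (adjusted p = 0.00204).

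Dars (chromosome 1, 128291444 to 128345105), the aspartate enzyme of the complex, ran against the other cytosolic genes. It stood at 139, 135 and 190 CPM in the Y-KO libraries, against 147, 154 and 157 CPM in the Y-Scr libraries. Y-KO replicates 1 and 2 lay below every Y-Scr library and replicate 3 above all of them. Its log2 fold change of 0.02 (SE 0.13, adjusted p = 0.951 by edgeR) thus averages libraries on both sides of Y-Scr, and its sign depended on the fit: it was -0.13 with library size alone as the scaling and -0.16 without Y-KO replicate 3 (SE 0.07, adjusted p = 0.0782 by edgeR).

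Of the 3 scaffold genes of the complex 1 rose and none fell, beside 7.82% of all genes called higher. Aimp1, whose product binds transfer RNA and can be processed to a secreted cytokine, had 115, 118 and 111 CPM in Y-KO, against 98.4, 87.9 and 90.5 CPM in Y-Scr, a log2 fold change of 0.31 (SE 0.08, adjusted p = 0.0354 by edgeR). The groups were apart. Aimp2, the central scaffold, averaged 37.7 ± 1.54 CPM in Y-KO tumours and 37.2 ± 1.51 CPM in Y-Scr tumours (SD, n = 3 each; log2 fold change 0.02, SE 0.09). Eef1e1, the smallest of the scaffolds, averaged 40.4 ± 2.42 CPM in Y-KO tumours and 41.7 ± 2.86 CPM in Y-Scr (log2 fold change -0.05, SE 0.10). Both overlapped between the groups and were not called.

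Synthetases fall into class I and class II by the fold of their catalytic domain, and Eprs holds one of each. Of the single-class genes, 8 of 9 class I genes and 8 of 10 class II genes were called higher, beside 7.82% of all genes. Their median log2 fold changes were 0.58 and 0.63. Gars and Kars each encode both the cytosolic and the mitochondrial enzyme of their amino acid from 1 gene. Gars (chromosome 6, 55014992 to 55056485), for glycine, had 297, 298 and 221 CPM in Y-KO, against 176, 164 and 168 CPM in Y-Scr (log2 fold change 0.69, SE 0.12, adjusted p = 0.00732 by edgeR). Kars, for lysine, had 278, 270 and 231 CPM in Y-KO, against 193, 184 and 177 CPM in Y-Scr (0.49, SE 0.09, adjusted p = 0.00959 by edgeR). In both genes the groups were apart. Leaving out Y-Scr replicate 2 or 3 ended the Kars call (adjusted p = 0.0547 and 0.0587). Gene counts do not separate the transcripts for the compartments.

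Y-KO replicate 3 was the lowest Y-KO library in 18 of the 20 cytosolic genes, the exceptions being Vars and Dars. Yet it lay above every Y-Scr library in 19 of the 20 cytosolic genes, all but Farsa. The shares of all genes tested with these positions were not taken, so neither count can be called particular to the synthetases. Without Y-KO replicate 3, 19 cytosolic genes were called higher, while 16.0% of all genes were called higher, but that fit keeps only the closely similar replicates 1 and 2 in Y-KO. Without Y-KO replicate 1 or 2 the count was 13 in each case, and without Y-Scr replicates 1, 2 and 3 it was 15, 12 and 12, while 3.86%, 3.90%, 5.20%, 2.45% and 2.56% of all genes were called higher in these 5 fits. The 12 genes called in every such fit were Aars, Cars, Eprs, Farsb, Gars, Iars, Lars, Nars, Rars, Sars, Vars and Yars. With each closely similar pair of libraries (Y-KO replicates 1 and 2, Y-Scr replicates 2 and 3) summed into 1 sample, which leaves 2 samples a group, no cytosolic gene was called, although their median log2 fold change was 0.55. In that fit 0.700% of all genes were called higher, and the smallest adjusted p of a cytosolic gene was that of Cars, 0.0625.

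Mitochondrial synthetases were low and close together in both groups. Lars2 (chromosome 9, 123195992 to 123291731), the leucine enzyme, was the exception in level: it had 454, 413 and 434 CPM in Y-KO, against 448, 418 and 444 CPM in Y-Scr, more in each library than the other mitochondrial genes together. The groups overlapped fully (log2 fold change -0.01, SE 0.07, adjusted p = 0.942 by edgeR). Iars2, the isoleucine enzyme and the next most abundant, averaged 100.4 ± 1.58 CPM in Y-KO tumours and 90.2 ± 4.70 CPM in Y-Scr tumours (SD, n = 3 each; log2 fold change 0.15, SE 0.08, adjusted p = 0.239 by edgeR). The other 14 genes had group means between 6.41 and 60.2 CPM.

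Ears2 (chromosome 7, 121636436 to 121666486), which charges glutamate in mitochondria, had the largest positive value, with 15.7, 17.4 and 19.95 CPM in Y-KO, against 13.7, 13.1 and 10.9 CPM in Y-Scr. The groups were apart and Y-KO replicate 3 was the highest library, the reverse of its place among most cytosolic genes. The log2 fold change of 0.49 (SE 0.15) did not pass (adjusted p = 0.0600 by edgeR), while DESeq2 called it (adjusted p = 0.0260), as did edgeR without Y-KO replicate 3 (log2 fold change 0.40, adjusted p = 0.0427). Hars2 (chromosome 18, 36916061 to 36925615), for histidine, had the largest negative value, with 24.1, 27.1 and 29.4 CPM in Y-KO, against 35.7, 32.4 and 37.2 CPM in Y-Scr. All Y-KO libraries were below all Y-Scr libraries (log2 fold change -0.38, SE 0.12, adjusted p = 0.0549 by edgeR), and DESeq2 (adjusted p = 0.0337) and limma-voom (adjusted p = 0.0423) called it lower. Without Y-KO replicate 3 edgeR called Hars2 lower as well (log2 fold change -0.46, adjusted p = 0.00411).

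Hars and Hars2 are neighbours read in opposite directions from a shared start region, where 195 bases of their exons overlap in the deposited annotation. Hars was called higher and Hars2 was the mitochondrial gene with the lowest fold, and per library the log2 ratio of Hars to Hars2 was 2.08, 2.00 and 1.68 in Y-KO, against 1.26, 1.26 and 0.99 in Y-Scr. Counting did not use strand, and reads on the shared bases were left out of both genes.

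Of the other mitochondrial genes, Vars2 (log2 fold change 0.30, SE 0.11), Rars2 (0.26, SE 0.10), Sars2 (0.25, SE 0.12) and Iars2 lay above Y-Scr in all Y-KO libraries, with edgeR adjusted p from 0.0992 to 0.239. Vars2 was called without Y-KO replicate 3 (0.33, adjusted p = 0.0275 by edgeR). Aars2, Fars2, Wars2 and Nars2 had positive values with overlapping groups, from 0.11 to 0.25. Cars2, Pars2, Mars2, Tars2 and Yars2 had negative values with overlapping groups, from -0.31 for Cars2 (SE 0.19) to -0.02 for Yars2 (SE 0.14). For these 16 genes the SE ran from 0.07 to 0.19 on the log2 scale, so that a change of the size seen in Cars or Aars, the largest of the cytosolic genes, would be several times the SE in each of them. Smaller changes could go uncalled: Ears2, at 0.49 with an SE of 0.15, was not called, while the cytosolic Vars, at 0.51 with an SE of 0.07, was. The lack of calls therefore does not exclude changes of the size of the smaller cytosolic ones, such as Hars at 0.36. The signs of the small values depend on the scaling, since the median over all genes tested was -0.03 with TMM and -0.17 with library size alone. With library size alone the mitochondrial median was -0.01 and the cytosolic median 0.45; relative to the median of all genes they were 0.16 and 0.62 under both scalings.

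The cytosolic gene gained on its mitochondrial counterpart for most amino acids. Among the members, 17 pairs of a cytosolic and a mitochondrial gene serve the same amino acid, with Eprs and Fars2 in 2 pairs each. In each library the log2 ratio of the cytosolic to the mitochondrial CPM was taken, which does not depend on the scaling between libraries. All 17 mean ratios were higher in Y-KO than in Y-Scr, by a median of 0.50 on the log2 scale, and in 15 pairs the Y-KO libraries lay above all Y-Scr libraries. Of single genes tested, 17.5% lay apart in this direction, and the share over all pairs of genes was not taken. The ratios restate the levels of the same genes and add no separate support to their calls. With 3 libraries against 3 an exact two-sided permutation test cannot give a p under 0.1, so no p is given for the pairs. The largest difference was that of Cars and Cars2, with log2 ratios of 3.83, 3.48 and 3.50 in Y-KO, against 2.23, 2.19 and 2.47 in Y-Scr, a difference of 1.30. Aars and Aars2 had 4.15, 4.51 and 4.35 in Y-KO, against 3.51, 3.61 and 3.57 in Y-Scr, a difference of 0.78. In both pairs the Y-KO libraries, replicate 3 included, stood clear of Y-Scr.

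The pairs that overlapped were Eprs with Ears2 and Farsa with Fars2. Eprs with Ears2 gave log2 ratios of 4.12, 4.01 and 3.63 in Y-KO, against 3.67, 3.78 and 4.10 in Y-Scr, a difference of 0.07. Against its other counterpart, Pars2 for proline, the same Eprs gave 5.27, 5.43 and 5.43 in Y-KO, against 4.70, 4.51 and 4.86 in Y-Scr, a difference of 0.69. Ears2 and Pars2 had log2 fold changes of opposite sign, 0.49 and -0.12, neither of them called.

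**Figure D3:**
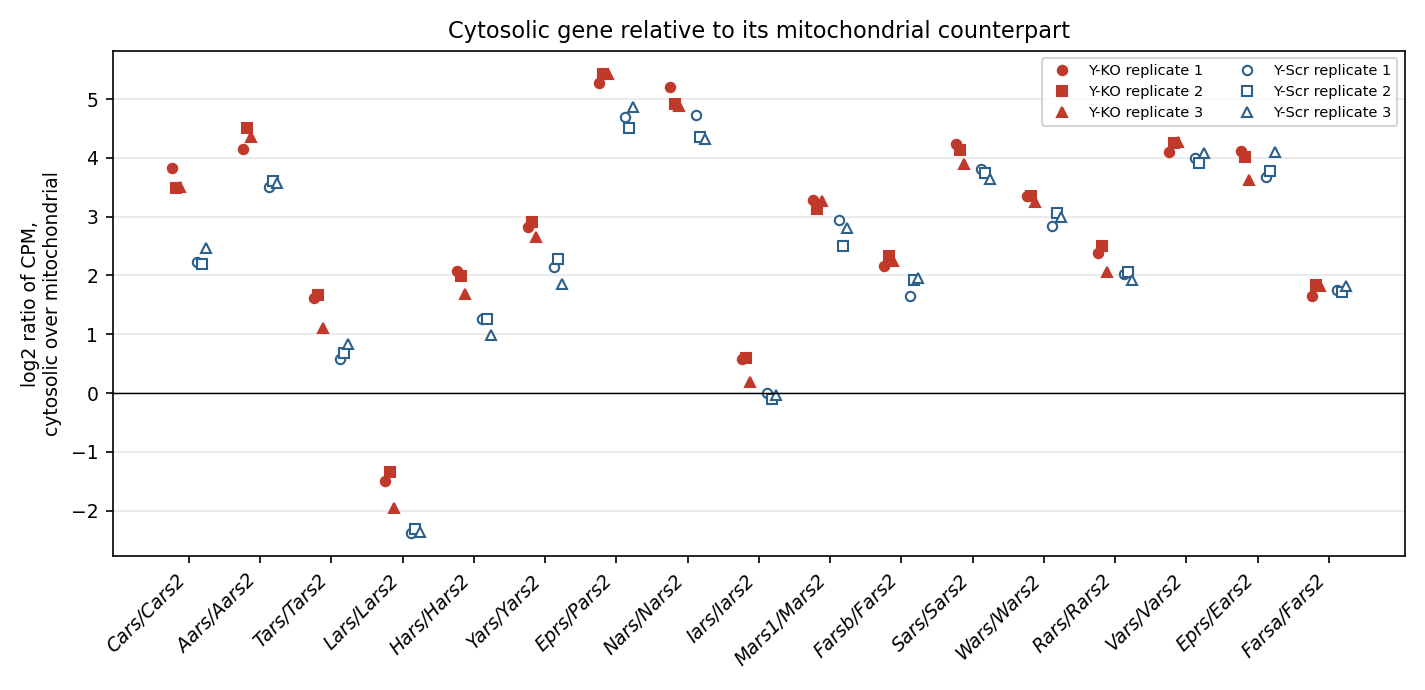
The log2 ratio of cytosolic to mitochondrial CPM for the 17 pairs serving the same amino acid, in each library, ordered by the difference between the groups. Filled red symbols are Y-KO libraries and open blue symbols Y-Scr libraries. The groups are apart in 15 pairs, and the last 2 pairs on the right, Eprs with Ears2 and Farsa with Fars2, overlap.

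Levels of different genes can be compared only per length of transcript, here as CPM per kilobase of annotated exon. On that scale Vars was highest in both groups, with 118 CPM per kb in Y-KO and 82.6 in Y-Scr. Gars had 87.2 CPM per kb in Y-KO and 54.2 in Y-Scr, and Nars 78.5 in Y-KO and 46.7 in Y-Scr. Lars2, at 39.1 CPM per kb in Y-KO and 39.4 in Y-Scr, was the only mitochondrial gene among the 16 highest in Y-Scr, where it ranked 5; in Y-KO it ranked 9. The lowest of all was Mars2, the methionine enzyme of mitochondria, with 1.20 CPM per kb in Y-KO and 1.25 in Y-Scr. Across the 17 pairs the cytosolic gene stood a median of 7.13 times as high per kb as its counterpart in Y-KO, and 4.41 times in Y-Scr. Leucine alone was turned round: Lars had 0.693 times the level of Lars2 per kb in Y-KO and 0.405 times in Y-Scr.

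Promoters of the members were searched for short motifs, since Atf4 and its partners of the C/EBP family bind a composite element, TGATGNAA, known from genes of the amino acid response. RefSeq promoters (build GRCm38.p6, 250 bases before to 50 after the annotated start) were at hand for 27 of the 36 genes, 13 cytosolic and 14 mitochondrial. On either strand TGATGNAA was found in 5 of the 13 cytosolic promoters and in 0 of the 14 mitochondrial ones, and in 9 of 27 genes of the Atf4 list described below, while 4.51% of all genes with a promoter in the table hold it. The 5 windows with a match, from 130 bases before to 20 after the start, are shown here beside those of Mars1, the called gene nearest to the threshold, and Aars2, the counterpart of Aars, which have none; capitals mark the match, read along the gene:
Aars: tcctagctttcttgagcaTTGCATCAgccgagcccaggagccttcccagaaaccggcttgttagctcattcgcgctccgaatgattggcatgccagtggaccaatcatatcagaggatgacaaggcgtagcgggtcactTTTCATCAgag
Gars: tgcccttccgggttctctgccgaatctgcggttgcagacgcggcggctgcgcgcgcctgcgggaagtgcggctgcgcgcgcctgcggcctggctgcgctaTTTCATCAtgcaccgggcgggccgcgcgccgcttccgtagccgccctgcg
Tars: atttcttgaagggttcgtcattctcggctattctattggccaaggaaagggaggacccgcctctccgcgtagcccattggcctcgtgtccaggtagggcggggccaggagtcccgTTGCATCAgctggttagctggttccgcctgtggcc
Iars: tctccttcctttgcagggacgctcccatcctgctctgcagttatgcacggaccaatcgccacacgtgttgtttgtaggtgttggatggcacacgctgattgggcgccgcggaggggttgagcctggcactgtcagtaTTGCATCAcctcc
Yars: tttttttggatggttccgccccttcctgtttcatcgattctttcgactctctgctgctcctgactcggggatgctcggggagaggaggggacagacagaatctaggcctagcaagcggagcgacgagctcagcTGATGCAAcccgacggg
Mars1: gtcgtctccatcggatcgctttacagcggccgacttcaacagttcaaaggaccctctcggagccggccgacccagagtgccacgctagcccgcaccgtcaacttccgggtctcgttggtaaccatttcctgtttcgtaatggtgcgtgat
Aars2: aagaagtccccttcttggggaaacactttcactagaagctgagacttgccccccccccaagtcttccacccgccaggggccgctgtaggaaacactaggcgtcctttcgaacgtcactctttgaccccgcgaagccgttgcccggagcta

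In these coordinates of GRCm38.p6 the Aars window is chr8:111033712-111033861 on the plus strand, that of Gars chr6:55037871-55038020 (plus), of Tars chr15:11399639-11399788 (minus), of Iars chr13:49682000-49682149 (plus), of Yars chr4:129189773-129189922 (plus), of Mars1 chr10:127311767-127311916 (minus) and of Aars2 chr17:45506702-45506851 (plus). The Aars promoter held 2 matches, with first bases at -112 and 10 relative to the start, where 1 is the first transcribed base. Gars held it at -30, Tars at -15, Iars at 8 and Yars at 4, so that all 5 genes had a match within 30 bases of the start. Only the Yars match read TGATGNAA along the gene, and the others lay on the opposite strand. In Aars (first match), Tars, Iars and Yars the variable base was C, which gives TGATGCAA, a spelling found in 1.03% of all genes and nested in the longer search. The 5 genes with the motif were all called higher, with log2 fold changes of 0.67 to 0.88. Of the 8 other cytosolic genes with a matched promoter, 5 were called, with values of 0.02 to 0.66. These counts stand beside 7.82% of all genes called higher. Cars, Hars, Lars, Nars, Rars, Vars and Wars were not matched.

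In all, 8 motifs were searched on both strands, the nested spelling included, and they were chosen after the fold changes were known. The E-box CACGTG was found in 4 of 13 cytosolic and 1 of 14 mitochondrial promoters (8.09% of all genes), and the ETS site CCGGAAG in 5 of 13 and 4 of 14 (9.93%). The nuclear respiratory factor site was found in 3 of 13 and 2 of 14 (5.19%), the interferon-stimulated response element core in 1 of 13 and 0 of 14 (3.99%), and the gamma-activated sequence TTCNNNGAA in 2 of 13 and 1 of 14 (9.55%). TGACGTCA, the cyclic AMP response element, was found in none of the 27 genes (2.03%). In Kars the ETS site and the gamma-activated sequence share bases. A match describes the letters of these windows and not binding, and a window without one says nothing of the factor.

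Genes of the same stress pathway were described from lists chosen with earlier results of these data known. Among 28 tested genes of the Atf4 list, 19 were called higher and none lower, beside 7.82% and 8.27% of all genes. The list holds Atf4, related factors and known targets but no synthetase, and its median log2 fold change was 0.75. Atf4 itself (chromosome 15, 80139385 to 80141742) had 476, 498 and 381 CPM in Y-KO, against 326, 308 and 314 CPM in Y-Scr, a log2 fold change of 0.52 (SE 0.11, adjusted p = 0.0136 by edgeR). The groups were apart, and Y-KO replicate 3 was the lowest of its group as it was for most cytosolic synthetases. Asns, which makes asparagine, had 208, 192 and 145 CPM in Y-KO, against 64.1, 56.6 and 59.7 CPM in Y-Scr, a fold of 3.02. Its Y-KO libraries were all far above the Y-Scr libraries. Slc7a5, the leucine transporter light chain, rose by 1.20 on the log2 scale, the pseudokinase gene Trib3 by 1.32, and Eif4ebp1, a repressor of cap-dependent translation, by 1.03. Ddit3, which encodes the stress factor CHOP, had 36.8, 39.6 and 30.0 CPM in Y-KO, against 31.8, 20.5 and 26.6 CPM in Y-Scr, with overlapping groups and no call (log2 fold change 0.43, SE 0.18, adjusted p = 0.135 by edgeR). With the close pairs of libraries summed, 6 genes of the Atf4 list were called higher, beside 0.700% of all genes.

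Of 17 genes for the kinases, subunits and exchange factors upstream of Atf4, 2 rose and 1 fell, beside 7.82% of all genes called higher and 8.27% called lower. Their median log2 fold change was 0.19. Eif2s3y, the Y-linked copy of the gamma subunit of eIF2, had 15.5, 20.8 and 7.20 CPM in Y-KO, against 95.4, 95.1 and 96.5 CPM in Y-Scr, a log2 fold change of -2.72 (SE 0.32, adjusted p = 0.00112 by edgeR). Its X-linked counterpart Eif2s3x had 82.3, 88.1 and 79.3 CPM in Y-KO, against 73.7, 86.2 and 89.3 CPM in Y-Scr, and overlapped fully (log2 fold change 0.00, SE 0.10, adjusted p = 0.991 by edgeR). The genes that rose were Eif2b5, of the exchange factor eIF2B (0.40, SE 0.09), and Eif2s2, the beta subunit of eIF2 (0.35, SE 0.09). Phosphorylation of eIF2 and protein levels of Atf4 were not measured by these libraries.

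Among 8 genes that act on charged transfer RNA in the cytosol, 3 rose and none fell, beside 7.82% of all genes called higher. Eef1g, a subunit of the exchange factor that reloads the elongation factor carrying charged transfer RNA, rose 1.38-fold (log2 fold change 0.47, SE 0.06), the translocase gene Eef2 1.22-fold (0.29, SE 0.06), and Xpot, which exports transfer RNA from the nucleus, 1.43-fold (0.52, SE 0.15). On the mitochondrial side, 2 of 14 genes of transfer RNA charging, modification and use rose and none fell, beside 7.82% of all genes called higher, and their median log2 fold change was 0.05. They were Tufm, the mitochondrial elongation factor that carries charged transfer RNA (log2 fold change 0.54, SE 0.11, adjusted p = 0.0128 by edgeR), and Tsfm, its exchange factor (0.60, SE 0.12, adjusted p = 0.0137 by edgeR). Gatc, a subunit of the amidotransferase that makes mitochondrial glutaminyl-tRNA in place of a glutamine synthetase, was not called (0.29, SE 0.15). Trmu, of the same list, had a negative value and was not called either (-0.37, SE 0.12, adjusted p = 0.0682 by edgeR). All its Y-KO libraries lay below all Y-Scr libraries.

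The messages that the mitochondrial synthetases help to translate were higher. All 13 mitochondrially encoded mRNAs were called higher, beside 7.82% of all genes, from 0.93 to 1.73 on the log2 scale. Their summed level was 65093 ± 356 CPM in Y-KO tumours and 27075 ± 382 CPM in Y-Scr tumours (SD, n = 3 each). The mitochondrial synthetases, set beside them, had a median log2 fold change of 0.13 and no call. Of 11 nuclear genes of mitochondrial transcription and RNA stability 3 rose and 1 fell, beside 7.82% of all genes called higher and 8.27% called lower. Lrpprc, which stabilises mitochondrial mRNAs, rose 1.51-fold. Ppargc1a, a coactivator of mitochondrial biogenesis, fell to 1.28 ± 0.134 CPM in Y-KO, against 3.44 ± 0.411 CPM in Y-Scr tumours (SD, n = 3 each, log2 fold change -1.43, SE 0.27, adjusted p = 0.00994 by edgeR). Mitochondrial mRNAs take up 6.16% to 6.21% of the Y-KO counts and 2.77% to 2.91% of the Y-Scr counts, a share that enters the library totals.

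**Figure D4:**
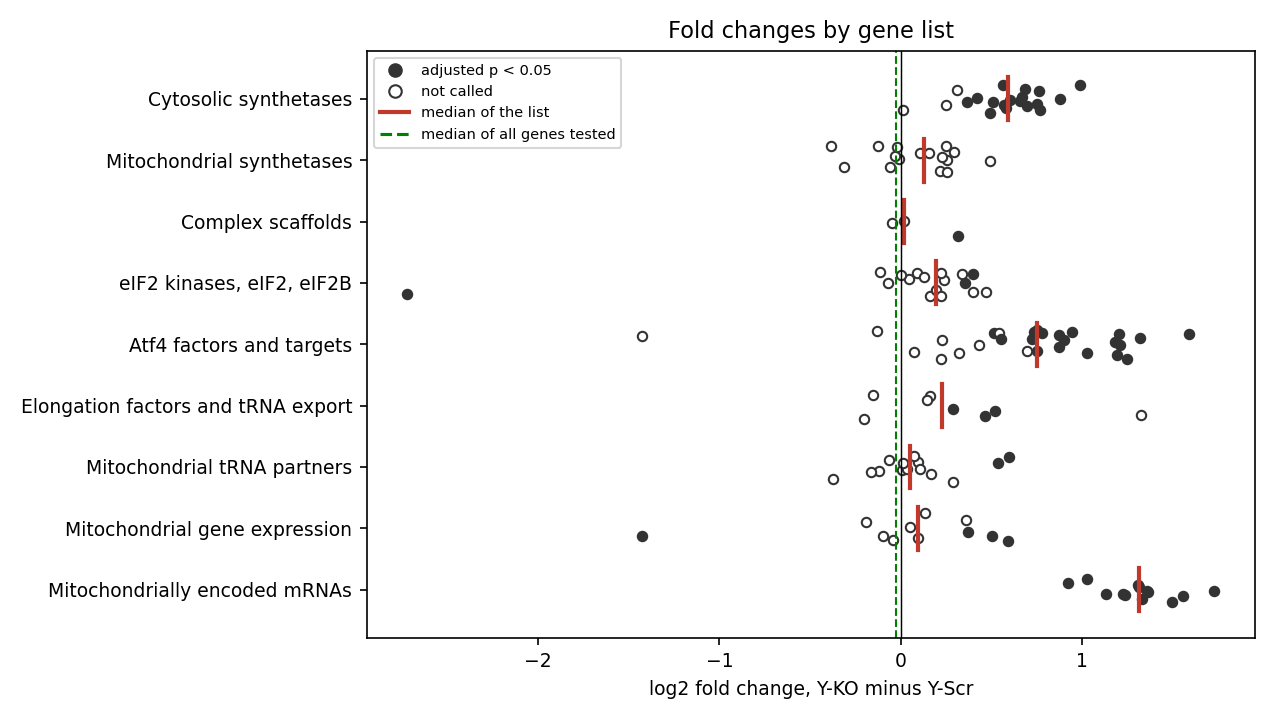
Log2 fold changes, Y-KO minus Y-Scr, of all tested genes in the synthetase lists and the lists of their pathway; each point is a gene, filled where the edgeR adjusted p is under 0.05, and points are spread vertically for legibility. Red bars are list medians (0.59 for cytosolic synthetases, 0.13 for mitochondrial synthetases, 0.75 for the Atf4 list) and the dashed line is the median of all genes tested.

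Interferon-gamma-induced genes, of which Wars is known to be one although it is not in that list, were higher as well. Among them Tap1, a peptide transporter subunit, rose 2.13-fold. Of 15 genes 10 rose and none fell, beside 7.82% of all genes called higher, with a median log2 fold change of 1.03. Their summed level ran from 1392 to 2022 CPM in Y-KO tumours and from 905 to 958 CPM in Y-Scr. Their part in the change of Wars was not tested.

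Cell type markers differed between the groups as well, and along Y-KO. The epithelial markers cannot be assigned to other cells, because MB49 is itself a carcinoma line. The counts of each list stand beside 7.82% of all genes called higher and 8.27% called lower. Of 11 pan-leukocyte markers 4 fell and none rose, with summed levels of 1572 to 3346 CPM in Y-KO tumours and 3924 to 4081 CPM in Y-Scr. None of these markers was at 0 in any library. Of 12 T and NK cell markers 10 fell and none rose, with summed levels of 157 to 285 CPM in Y-KO tumours and 1022 to 1085 CPM in Y-Scr, and of 10 macrophage markers 6 rose and none fell, with 1489 to 2695 CPM in Y-KO tumours and 1423 to 1584 CPM in Y-Scr. Of 10 fibroblast markers 3 fell and none rose, with 174 to 621 CPM in Y-KO tumours and 938 to 997 CPM in Y-Scr, and Fap had 0 counts in Y-KO replicate 1. Of 7 tested endothelial markers 1 rose, with summed levels of 35.2 to 52.98 CPM in Y-KO tumours and 46.9 to 52.7 CPM in Y-Scr, and Tek, Tie1 and Emcn had 0 counts in at least 1 Y-KO library. Of 7 tested epithelial markers 3 rose and 1 fell, with 3223 to 3427 CPM in Y-KO tumours and 2391 to 2723 CPM in Y-Scr, nearly all of it from the keratin genes Krt8 and Krt18; the urothelial markers Upk2 and Upk3a had 0 counts in all libraries.

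Measured against the Y-Scr mean, the mean log2 CPM of the cytosolic synthetases was 0.64, 0.67 and 0.40 higher in Y-KO replicates 1, 2 and 3. The Atf4 list was 0.79, 0.68 and 0.41 higher and the macrophage markers 1.00, 0.97 and 0.24 higher, so that in all 3 lists replicate 3 was the lowest of Y-KO. Leukocyte markers differed by -0.26, -0.25 and -1.25 and fibroblast markers by -1.73, -1.22 and -0.31. Y-KO replicate 3, with the least of the rise in cytosolic synthetases, thus also had the lowest leukocyte level and, of the Y-KO libraries, the fibroblast level nearest to Y-Scr. With the mean of the pan-leukocyte markers as a covariate, 18 cytosolic genes were called higher, beside 16.6% of all genes, and 1, Dars, was called lower, beside 15.9% (log2 fold change -0.28, adjusted p = 0.0121 by edgeR). Within the groups that mean varied mainly through Y-KO replicate 3. The fit therefore cannot separate leukocyte content from any other trait of that library, and it resembles the fit that leaves the library out. The part of the macrophage, T cell and fibroblast markers in the result was not tested.

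**Figure D5:**
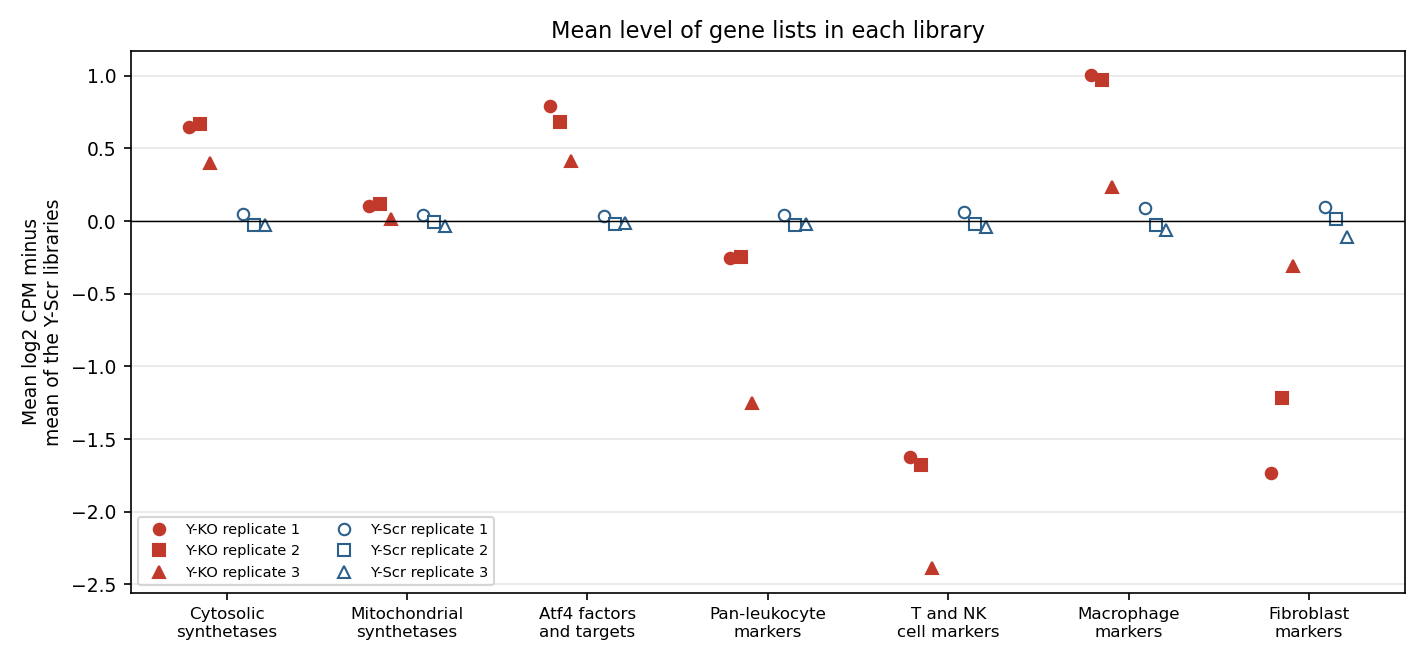
Mean log2 CPM of gene lists in each library minus the mean of the Y-Scr libraries. Filled red symbols are Y-KO libraries and open blue symbols Y-Scr libraries. The cytosolic synthetases lie at 0.40 to 0.67 in Y-KO and the mitochondrial synthetases at 0.01 to 0.12, while the pan-leukocyte, T and NK cell and fibroblast markers lie below 0 in every Y-KO library.

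Some members share exon bases with other genes, whose reads on these bases were left out of both. The overlap covers 22.9% of Iars2 (with Rab3gap2), 14.3% of Aars (with Exosc6), 9.47% of Farsb and at most 8.72% of any other member with any single gene. Mars1 shares 68 bases with Ddit3, which is read from the opposite strand. A pseudogene of Kars on the X chromosome had 0 counts in all libraries.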

How the data were processed

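Bulk poly-A RNA of CD45-negative cells from 3 Y-KO and 3 Y-Scr MB49 tumour samples was sequenced from stranded libraries, per the labels' protocols. The authors deposited 1 table of raw counts of reads in genes, made with featureCounts 1.5.3 and the Ensembl 112 annotation of GRCm39, per the file headers; the defaults of that version do not use strand, count single reads and leave out reads that fit several places or genes. Per the submitters' processing notes, reads were handled with FastQC 0.12.1, MultiQC 1.13, Trimmomatic 0.39 and STAR 2.5.2b. All 6 libraries carry the same batch label.

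Symbols came from a table matched by gene ID, with 51880 of 57186 IDs named. Testing used edgeR 4.0.16 (R 4.3.3): filterByExpr with the group (minimum count 10, minimum total 15) left 17837 genes, TMM gave the scaling, a quasi-likelihood model with group as its only term was fitted, and p-values were Benjamini-Hochberg adjusted over all genes tested. Genes with an adjusted p under 0.05 were called. The SE was taken as the absolute log2 fold change over the root of F. List means use log2 CPM with a prior count of 2. The members and the 15 other lists were chosen with earlier results of these data known, and the grouping by complex, class and amino acid was written after the fold changes were seen. In each other list the text may name up to 4 members with the smallest p, besides Atf4, Ddit3, Eif2s3x, Eif2s3y, the scaffolds and Ptprc. Markers at 0 counts, overlapping genes and mt-Nd3 were named after their values were seen. No set test was made.

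Alternatives were DESeq2 1.42.0, limma-voom (limma 3.58.1), other scalings and filters, the replicate number as a block, halved counts, close library pairs summed, a leukocyte covariate and leaving out each library. On simulated counts for Y-KO against Y-Scr (17035 genes tested), edgeR found 18% of the 50 genes given a 1.5-fold change. It found 44% of those given a 2-fold change, 72% at 4-fold and 76% at 8-fold, while 13 of its 118 calls were false. The simulation changed 200 genes drawn at any level, whereas 2871 of 17837 genes were called in the data. Its rates therefore do not carry over to the synthetases. Plots were drawn with matplotlib 3.10.9.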

Additional observations from a re-analysis of the deposited data

How the results depend on the processing

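The 17 cytosolic calls were 15 to 18 under other scalings, filters, tools, halved counts, the leukocyte covariate and the replicate block, and 12 to 19 when each library was left out, but 0 with the close library pairs summed, where 2 samples a group are left. The share of all genes called higher ran from 4.09% (library size alone) to 16.6% (leukocyte covariate) in the first set of fits. It was 2.45% to 16.0% with each library left out and 0.700% with the pairs summed. Similar counts thus do not mean equal results. Same-numbered libraries showed no shared deviation: correlations of their deviations from the group means lay between -0.01 and 0.00. Such values cannot show that the samples were not paired, and the labels do not state a pairing. With the replicate number as a block 15 cytosolic genes were called higher, beside 5.30% of all genes, and no mitochondrial gene was called; Hars (edgeR adjusted p = 0.0572) and Mars1 (0.0670) were lost.

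No cytosolic gene was called lower except under the leukocyte covariate, with 1, Dars, whose log2 fold change turned to -0.28. The cause was not tested. Of the mitochondrial genes none was called higher in most fits, but DESeq2 called 1 (Ears2), beside 10.3% of all genes. The leukocyte covariate called 1 (Vars2), beside 16.6%, and leaving out each library gave 0 to 2, beside 2.45% to 16.0%. Hars2 was the 1 mitochondrial gene called lower by DESeq2, by limma-voom, with library size alone, with halved counts, with a mean CPM of at least 4 and with the leukocyte covariate. These fits called 9.58% to 15.9% of all genes lower. Leaving out each library gave 0 to 1, beside 3.01% to 17.7% of all genes. The cause of these changes was not tested.

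Among the values of single cytosolic genes under the alternatives, 263 kept their direction and their side of the threshold, 43 lost the call, 8 gained one and 6 changed sign, all of Dars. Beside the leukocyte covariate, Dars was -0.13 with library size alone, -0.0025 by limma-voom, -0.025 with a mean CPM of at least 4 and -0.0016 with the replicate block, and between -0.16 and 0.10 with each library left out. Of the mitochondrial values 230 stayed, 11 gained a call and 15 changed sign, with no call on either side. Aars2 was -0.037 with library size alone, and with the leukocyte covariate Mars2 was 0.18, Pars2 0.0100, Tars2 0.033 and Yars2 0.030. With each library left out Aars2 lay between -0.037 and 0.23, Lars2 between -0.046 and 0.031, Mars2 between -0.15 and 0.073, Tars2 between -0.069 and 0.044 and Yars2 between -0.12 and 0.085. Libraries that share a tumour or an RNA would make every p-value too small.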
